A study of Homo sapiens with 8 samples.

Results

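The control arm of a time course in a salivary gland cell line was examined here for genes that differed between its first array and the next ones, with an eye to immediate early genes. The comparison set the array of BSA-treated cells at 2 h against the arrays of BSA-treated cells at 6 h and 12 h, so it used 3 of the 8 arrays of the series, 1 early and 2 late. Of the 49386 probe sets on each array, 45253 carried 1 gene symbol in the platform annotation, and they stood for 18239 genes. A gene with several probe sets was represented by the brightest of them, averaged over the 8 arrays.

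The cells were of the human line NS-SV-AC, which the labels describe as immortalised acinar cells, the saliva-secreting cells of the gland. They received BSA, the control protein, or the inflammatory cytokine TNF-a at 20 ng/ml, for 2, 6, 12 or 24 h, with 1 array for each treatment and time. Total RNA, 10 ng per array, was labelled with biotin by a 3′ IVT kit and hybridised to Affymetrix GeneAtlas arrays. The study used a single cell line, and with no replicate of any group, any difference between times also holds the difference between single cultures and arrays. All levels below are log2 RMA values, and a difference of 1 log2 unit is 2-fold.

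The 3 arrays had medians of 4.33 to 4.35. Across genes the 2 h array correlated at r = 0.9936 with the 12 h array and at 0.9885 with the 6 h array, and the 6 h and 12 h arrays correlated at 0.9902, so the 6 h array stood slightly apart. The 3′ end of GAPDH read 0.20, 0.37 and 0.30 above its 5′ end at 2, 6 and 12 h, a usual measure of RNA integrity, and for ACTB the gap was 2.75, 2.75 and 3.09. On the 24 h control array, set beside these below, the gaps were 0.21 and 3.47, the largest ACTB gap of the control arrays. That array correlated at only 0.9797, 0.9676 and 0.9791 with the 2, 6 and 12 h arrays. The TNF array at 24 h had gaps of 6.28 for GAPDH and 6.88 for ACTB. It correlated at 0.9268, 0.9073 and 0.9279 with the control arrays of 2, 6 and 12 h. Here it counted only in choosing the brightest probe set of each gene. The part of these gaps in the results was not tested. Acinar markers were mostly low. Of 12 measured acinar markers only SLC12A2 reached log2 6 on any of the 3 arrays, at 7.20, 7.02 and 7.69, and the water channel AQP5 read 4.10, 4.03 and 3.93. At 2 h the simple-epithelium keratin KRT18 read 10.16 and the sodium channel subunit SCNN1A 9.79, the epithelial adhesion genes CDH1 and EPCAM 3.39 and 2.83. The fibroblast collagen COL3A1 read 9.40, but the collagens COL1A1 and COL1A2 3.86 and 3.44, and the immune marker PTPRC read 3.01. Under log2 6 on all 3 arrays stayed 6 of 9 duct markers, 3 of 7 fibroblast markers and all 6 immune markers. So did all 7 myoepithelial and basal markers and all 5 endothelial markers. The fibroblast list had the highest median level at 2 h, 6.25. The medians were 3.61 for acinar, 3.77 for duct, 4.70 for myoepithelial and basal, 4.35 for immune and 3.93 for endothelial markers. The medians of the 6 cell type lists differed by -0.05 to 0.12 between 2 h and the later arrays.

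Immediate early genes are transcribed within minutes of a stimulus, without new protein synthesis, and their transcripts are usually short-lived. Growth factors, serum, a change of medium and mechanical stress all induce them, largely through MAP kinases and the transcription factor SRF, which binds CArG boxes. Many encode transcription factors, such as EGR1 and the AP-1 subunits of the FOS and JUN families, and others encode proteins that shut the response off again, such as the phosphatases DUSP5 and DUSP6.

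A search for these control elements was made in RefSeq promoter windows of 300 bases (250 before and 50 after each annotated start, GRCh38.p14), on both strands. Of the 36 genes found below to be at least 2-fold higher at 2 h, 27 had a window, and of the 13 lower genes 11 had one. CArG boxes lay in windows of 2 higher genes, EGR1 and RND3, and in 1.29% of all 35116 windows. The cyclic AMP response element TGACGTCA was found for MAFF and in 1.85% of windows, and the AP-1 site TGANTCA for KLHL24 among the higher genes, for BCAR3 and PANK1 among the lower ones, and in 7.71% of windows. A kappaB motif lay in windows of CCN2 and MAFF, of BCAR3 and DLEU2, and of 5.91% of all. The element TGATGCAA, bound by C/EBP and ATF factors and added after the values were seen, was found for ARID5B, CEBPG and HERPUD1, and in 0.866% of windows. A gene counted if any of its windows held a match, whereas the percentages are shares of single windows. Genes can have several windows, so the counts and the percentages cannot be compared directly. These matches describe letters in the windows and do not show binding. Shown are upstream stretches of 4 of the higher genes, each read 5′ to 3′ on the gene's own strand, which is the plus strand for all 4, with the match in capitals. EGR1 (chr5:138465314-138465465) holds CArG boxes that begin at positions -105 and -83 from the start, and it was the gene with the largest difference. In MAFF (chr22:38201880-38201993) the cyclic AMP response element begins at -54. CEBPG (chr19:33374011-33374112) and HERPUD1 (chr16:56931906-56932033), genes of the stress responses described below, have the C/EBP and ATF element at -42 and, on the opposite strand, at -176.
EGR1: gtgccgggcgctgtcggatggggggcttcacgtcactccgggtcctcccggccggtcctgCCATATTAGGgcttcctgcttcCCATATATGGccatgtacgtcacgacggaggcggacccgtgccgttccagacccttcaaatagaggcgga
MAFF: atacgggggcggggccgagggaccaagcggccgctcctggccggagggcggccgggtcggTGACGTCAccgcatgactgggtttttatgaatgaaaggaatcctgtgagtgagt
CEBPG: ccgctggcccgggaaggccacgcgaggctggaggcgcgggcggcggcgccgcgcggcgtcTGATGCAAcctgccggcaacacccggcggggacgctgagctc
HERPUD1: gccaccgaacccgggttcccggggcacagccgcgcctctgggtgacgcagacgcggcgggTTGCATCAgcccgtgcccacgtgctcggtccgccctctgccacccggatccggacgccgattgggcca

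EGR1, a zinc-finger transcription factor and the best known immediate early gene, differed most between the early and the later control arrays. Its level was 10.35 at 2 h, 5.35 at 6 h and 5.59 at 12 h. The 2 h level lay 4.89 ± 0.19 (SE from limma, 1 array against 2) above the mean of the later arrays, a 29.6-fold difference, and the array at 24 h stood at 9.46, again far above 6 h and 12 h. In a limma fit over the 6 arrays of both arms at 2, 6 and 12 h, EGR1 was the only gene called in the BSA contrast, 0.00548% of those tested (adjusted p = 0.0293). The 2 h arm is 1 array and the arrays of 6 h and 12 h serve as each other's replicates, so this p measures their spread and cannot tell time from a single culture or array. The fit on the 3 control arrays alone had 1 residual degree of freedom and called no gene, 0% of 18239, with a smallest adjusted p of 0.311 and 594 genes at an unadjusted p under 0.05, of which 246 were higher and 348 lower at 2 h. Neither limiting the fit to genes at log2 5 or more on any of these 3 arrays nor a prior that follows the level can change a difference. The EGR1 difference of 4.89 therefore stayed by construction, and its SE was 0.30 with the limit and 0.35 with that prior. A gene could enter the limited fit through the 2 h array alone, so that filter was not independent of the difference. Apart from the calls of the other limma settings, which are named where they are given, the values below for the control arm describe these arrays and are not tests.

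At least 2-fold higher at 2 h than on both later arrays were 36 genes (0.197% of those measured), and 13 genes (0.0713%) were at least 2-fold lower. For comparison, 35% of all genes lay above both later arrays by any amount, and 28.5% below both. Against the 6 h array alone 176 genes were higher and 87 lower, and against the 12 h array alone 63 and 32. Among the higher genes 22 of 36 stood further above the 12 h array than above the 6 h array, with median differences of 1.65 and 1.38, and 32 of the 36 reached log2 6. With a limma prior that follows the level and is robust to outliers, 21 genes were called higher and 2 lower, and 19 of these 23 also met the 2-fold rule.

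**Figure D1:**
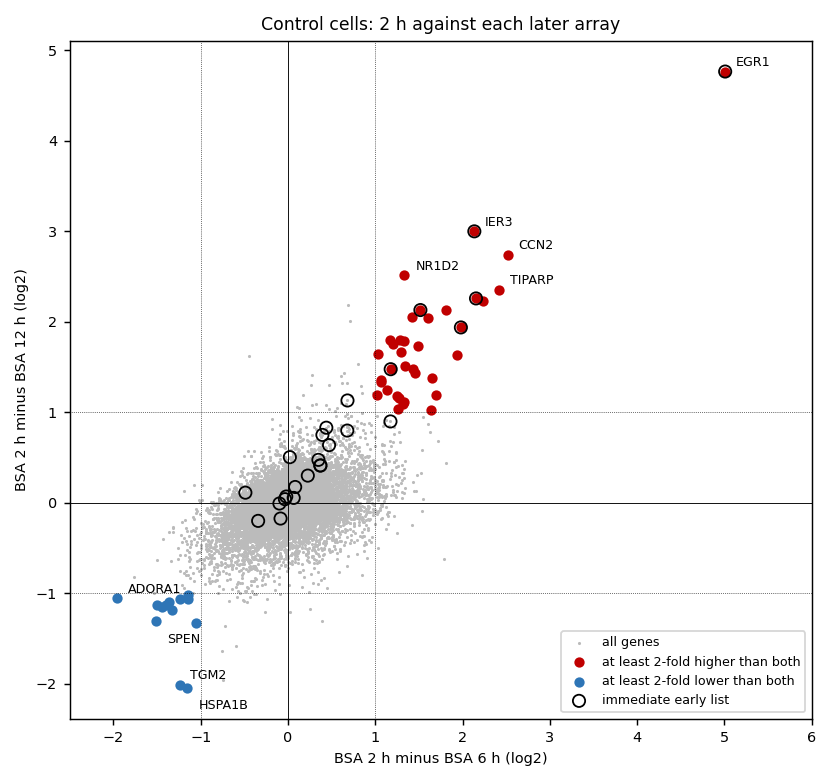
Difference of the BSA 2 h array from the BSA 6 h array (horizontal axis, log2) and from the BSA 12 h array (vertical axis, log2) for each of 18239 genes, with dotted lines at 2-fold. The 36 higher genes (red) reach to EGR1 at the upper right, the 13 lower genes (blue) lie at the lower left, and circles mark the 25 measured immediate early genes, of which 6 are red; the axes share the 2 h array.

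The immediate early list joined AP-1 subunits with the EGR, IER and NR4A group, and 25 of its 28 genes were measured. Above both later arrays at 2 h were 19 of the 25, below both were 3, and 6 were at least 2-fold higher, namely EGR1, IER3, ATF3, MAFF, IER2 and MYC. None was at least 2-fold lower. The median difference was 0.41, against 0.02 over all genes, and 13 of the 25 stayed under log2 6 on all 3 arrays.

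Among the EGR, IER and NR4A group, IER3, which modulates ERK signalling and cell survival, read 8.32 at 2 h, 6.19 at 6 h and 5.32 at 12 h, and lay 2.57 ± 0.41 (SE) above the later mean. IER2, a nuclear regulator, read 7.66, 6.14 and 5.53, a difference of 1.82. Both were lower at 12 h than at 6 h, whereas EGR1 had already reached its low level at 6 h. MYC, the growth-promoting transcription factor, was high throughout, at 11.04, 9.86 and 9.56. MCL1, a short-lived survival protein, read 9.94, 8.77 and 9.04, just short of 2-fold against the 12 h array, although 1 of its 6 probe sets was past 2-fold. The remaining members were smaller or near the bottom of the scale. BTG1, an antiproliferative gene, differed by 0.74 and IER5 by 0.57. The nuclear receptors NR4A1 and NR4A3 differed by 0.39 and 0.91, the latter at only 4.89, 4.21 and 3.76, and NR4A2 by -0.05. Across the 7 probe sets of NR4A1 the differences ran from -0.08 to 1.18, and 1 was past 2-fold. The other NR4A3 probe sets differed by 0.02 and 0.16. EGR3, EGR4 and ARC stayed under 4 on all 3 arrays and differed by 0.02 to 0.13. SRF itself read 6.43, 6.41 and 5.93, and IER5L differed by -0.19.

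Of the 10 AP-1 subunits measured, ATF3 and MAFF were at least 2-fold higher. ATF3, a stress-induced factor of the ATF family, read 6.99, 4.84 and 4.74 and had returned to 7.05 at 24 h. MAFF, a small Maf protein, read 5.70, 3.72 and 3.76. MAFF was back at 5.66 at 24 h. Both had nearly equal levels at 6 h and 12 h and stood higher at 2 h and 24 h. JUN read 7.28, 6.84 and 6.45. FOSL1, MAFG and FOSB differed by 0.55, 0.41 and 0.39, JUNB by 0.00, FOSL2 by -0.13 and JUND by -0.27. The sign of FOSL2 turned with its probe set, to 0.41 for the brightest one on the control arrays.

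FOS, the classical partner of JUN, depended on the probe set. The brightest probe set over the series read 5.36, 5.13 and 5.06, a difference of 0.26. A second of its 4 probe sets read 7.10 at 2 h, 3.70 at 6 h and 3.71 at 12 h, a difference of 3.40, and the other two differed by 1.46 and 0.75. All 4 were highest at 2 h. An alternative chosen after seeing the data represented each gene by the probe set with its highest value on any of the 3 control arrays. With it FOS joined the 2-fold genes, making 7 of the 25 immediate early genes and 40 genes in all. This choice can favour a probe set that is high on the 2 h array, as for FOS, so these counts are no independent support. For EGR1, 5 of 6 probe sets were at least 2-fold higher, and for CCN2 all 3 and for DUSP6 all 4. ATF3 was the opposite case, since its difference of 2.21 came from 1 of 7 probe sets and the other 6 lay between -0.19 and 0.34. Several other higher genes also passed 2-fold on 1 probe set only. For MAFF, CSRNP1 and MXD1 it was 1 of 2, with the other at 0.23, 0.15 and -0.01. For ULBP1 and PLEKHM3 it was 1 of 3, and for SH3BP2 1 of 4.

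**Figure D2:**
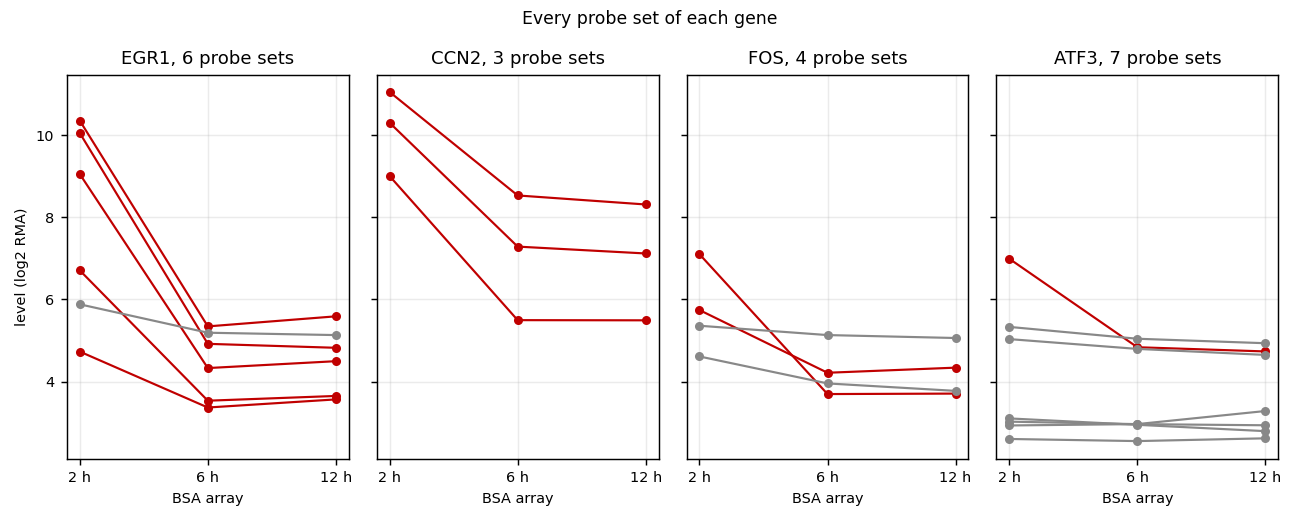
Level (log2 RMA, vertical axis) of every probe set of EGR1, CCN2, FOS and ATF3 on the BSA arrays of 2, 6 and 12 h; red lines are probe sets at least 2-fold higher at 2 h than at both later times. EGR1 has 5 of 6 and CCN2 3 of 3 red lines, while FOS has 2 of 4 and ATF3 1 of 7.

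Several genes outside the immediate early list used here, which does not hold every such gene, were among the highest differences. CCN2, a secreted matricellular protein also known as a YAP and TEAD target, read 11.05, 8.53 and 8.31 and lay 2.63 ± 0.18 (SE) above the later mean, 6.18-fold. Its relative CCN1 read 10.91, 9.57 and 9.13. Of the 14 YAP and TEAD targets measured only these 2 were at least 2-fold higher, and the list's median was 0.05, and 0.29 with the 24 h array added. TIPARP, a mono-ADP-ribosyltransferase that represses the aryl hydrocarbon receptor, read 9.79, 7.38 and 7.44, and 7.49 at 24 h. It thus stayed low to the end of the series. The factor KLF10 read 10.08, 8.47 and 8.05. It was the only one of 9 KLF genes past 2-fold, but 8 of the 9 lay above both later arrays and none below both, with a median of 0.57. KLF2 and KLF9 both differed by 0.99, and KLF5 by 0.86.

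Feedback genes of the MAP kinase pathway were headed by phosphatases of ERK. DUSP6 read 7.59 at 2 h, 5.36 at 6 h and 5.36 at 12 h, then 8.77 at 24 h. DUSP5 read 6.79, 4.98, 4.66 and 5.79. Both ERK phosphatases were thus low on the same arrays as EGR1. DUSP1, which acts on several MAP kinases, differed by 1.17 and SPRY4, an inhibitor of receptor tyrosine kinase signalling, by 0.99, but neither was 2-fold above both arrays. Over the 16 genes of the list 9 lay above both later arrays and 2 below, and the median was 0.18. Of 7 proteins that destabilise mRNA, 5 lay above both arrays and none was past 2-fold, with a median of 0.62; ZFP36 read 7.90, 7.06 and 6.61, and ZC3H12C 7.13, 5.97 and 6.28.

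**Figure D3:**
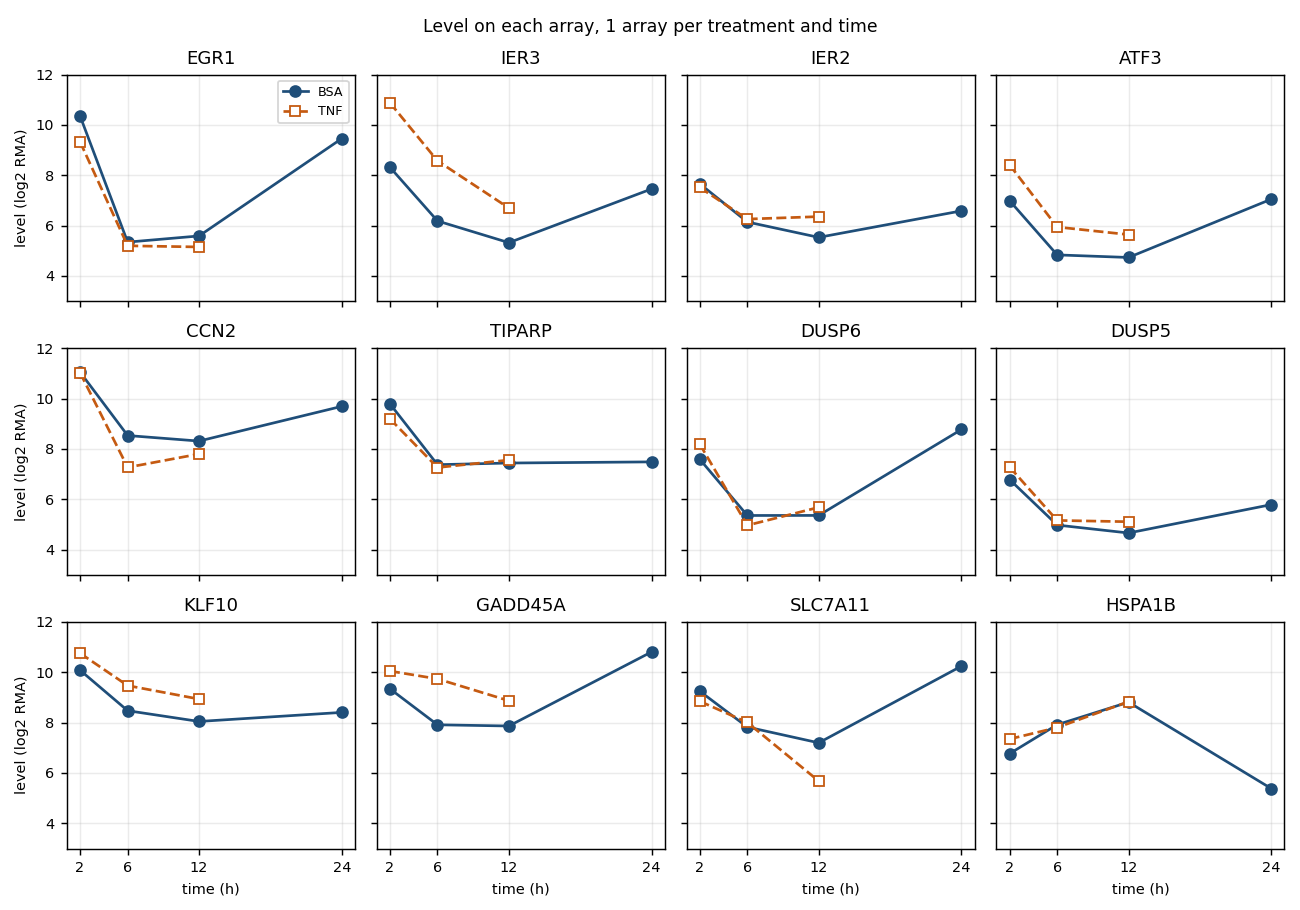
Level (log2 RMA, vertical axis) against time (h) for 12 genes on the BSA arrays (filled circles, 2 to 24 h) and the TNF arrays of 2 to 12 h (open squares), 1 array per point with no error bar. EGR1, DUSP6, ATF3, GADD45A and SLC7A11 are high at 2 h, low at 6 h and 12 h and high again at 24 h with BSA, TIPARP and KLF10 stay low at 24 h, and HSPA1B runs the other way.

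Most genes of the integrated stress and unfolded protein responses read higher at 2 h than at 6 h and 12 h. In the integrated stress response, the programme run by the factor ATF4, 13 of 17 genes lay above both later arrays and none below both, with a median difference of 0.64. That median was 0.01 when the 24 h array was added to the late arrays. The 3 that passed 2-fold were the cystine transporter SLC7A11 (9.25, 7.83 and 7.20 at 2, 6 and 12 h), the secreted glycoprotein STC2 (6.79, 5.30 and 5.06) and the factor CEBPG (9.46, 7.76 and 8.27). At 24 h these read 10.24, 7.62 and 10.03, each higher than at 2 h. DDIT3, the factor also called CHOP, lay just under 2-fold, at 4.94, 3.92 and 3.99, with 8.04 at 24 h. In the unfolded protein response, 10 of 12 genes lay above both later arrays, with a median of 0.46, and 0.29 with the 24 h array added. HERPUD1, a component of endoplasmic reticulum degradation, read 9.58, 8.51 and 8.25, and the factor XBP1 read 8.61, 7.59 and 7.42. The chaperone gene CALR was the exception, at -0.69. Of 14 p53 targets, GADD45A (9.34, 7.91 and 7.87, then 10.81 at 24 h) and the proapoptotic PMAIP1 (9.00, 7.66 and 7.49) were at least 2-fold higher, and the list's median was 0.26, and 0.15 with the 24 h array added.

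Among 15 circadian clock genes 9 lay above both later arrays and 2 below, and the repressors NR1D2 (8.04, 6.70 and 5.52) and BHLHE40 (6.18, 4.88 and 4.52) were at least 2-fold higher. NR1D2 continued down between 6 h and 12 h, and the list's median was 0.28, and 0.16 with the 24 h array added. Of 7 glucocorticoid targets 6 lay above both arrays and none below, with a median of 0.38, and TSC22D3, an anti-inflammatory leucine zipper protein, read 9.41, 8.17 and 8.23. The inhibitors of differentiation ID1 (8.97, 7.94 and 7.33) and ID2 (9.71, 8.54 and 7.92) were lower still at 24 h, at 4.06 and 5.66, while the median of the 13 BMP and TGF-beta targets was -0.02 and turned to 0.80 when only genes at log2 5 or more were kept. VEGFA, the angiogenic growth factor, read 9.36, 8.23 and 8.12. The ubiquitin ligase adaptor KLHL24 read 6.37, 4.43 and 4.74 and the zinc-finger gene ZNF283 7.32, 5.86 and 5.89. The 9 other genes of the 36, named after their values were seen, were ARID5B, CSRNP1, FAM43A, MXD1, PARD6B, PLEKHM3, RND3, SH3BP2 and ULBP1.

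Inflammatory genes, the usual targets of NF-kB, were mostly low on the arrays, with list medians near 0. None of 13 NF-kB feedback genes and none of 17 cytokines and chemokines passed 2-fold in either direction, and their medians were -0.05 and 0.04. Over all genes only 0.197% were at least 2-fold higher and 0.0713% lower, so these counts are not read as a result. Of the NF-kB feedback genes 10, and of the cytokines and chemokines all 17, stayed under log2 6 on all 3 arrays. At such levels a change in the transcript may not show. SRF targets of the cytoskeleton, a slower branch of the SRF response, had a median of -0.10, with 6 of 11 below both later arrays, and of 0.08 with the 24 h array added. The medians of ribosomal protein, respiratory chain and mitosis genes lay between -0.02 and 0.02, and with the 24 h array added those of mitosis and respiratory chain genes were 0.24 and 0.10.

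**Figure D4:**
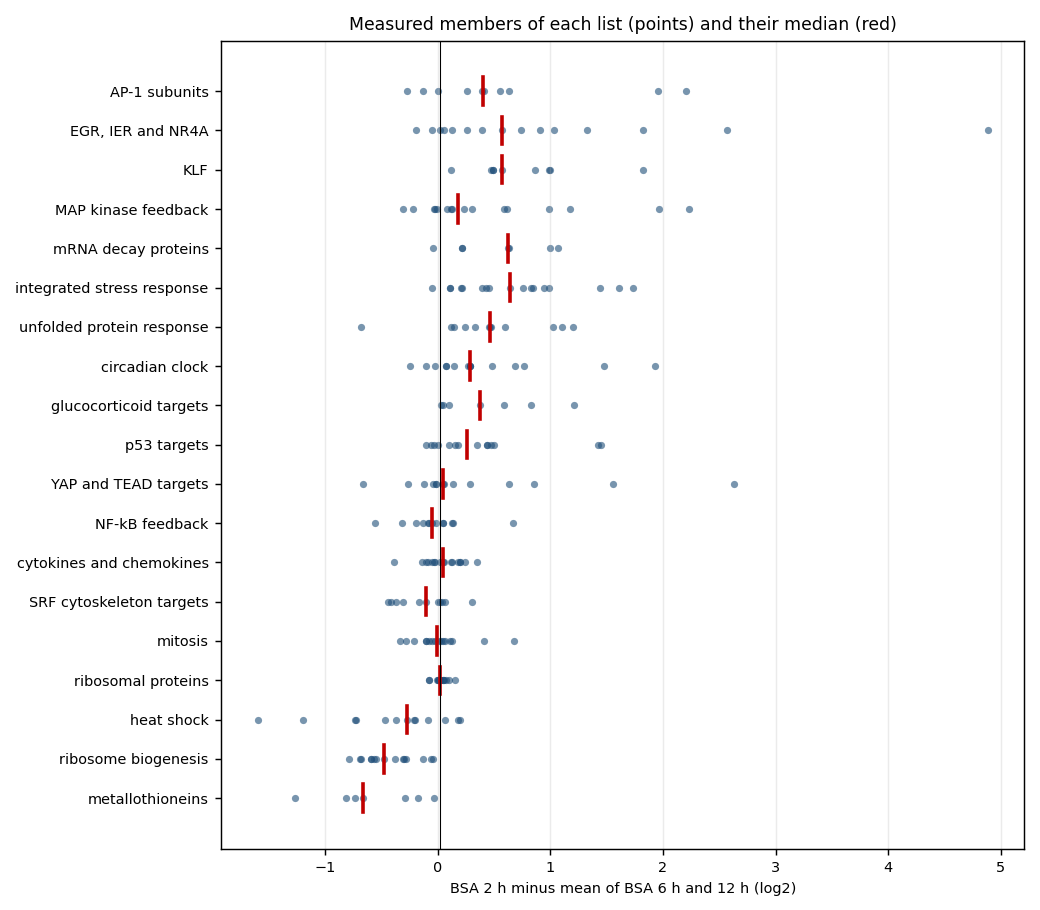
Difference of the BSA 2 h array from the mean of the BSA 6 h and 12 h arrays (log2, horizontal axis) for each measured gene (points) of 19 lists, with the list median in red and the median of all genes, 0.02, as the black line. The integrated stress response has a median of 0.64 and the metallothioneins one of -0.67, while ribosomal proteins lie close to the line.

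Ribosome biogenesis genes and metallothioneins, which bind metals, lay mostly below the 6 h and 12 h arrays at 2 h. Of 15 ribosome biogenesis genes 14 lay below both later arrays and none above, with a median of -0.48, although none reached 2-fold, and of -0.38 with the 24 h array added. NOP16 read 7.81, 8.84 and 8.35, and POLR1B, a subunit of RNA polymerase I, 7.68, 8.55 and 8.18. All 7 metallothioneins lay below both later arrays, with a median of -0.67, and MT1X, for example, read 9.37, 10.14 and 10.06, then 7.87 at 24 h. Against late arrays that included 24 h the median was 0.01, so the list stood lower at 2 h against 6 h and 12 h alone. Metallothionein genes are close copies whose probes may cross-hybridise, so they are not 7 separate measurements. Of 13 heat shock genes 7 lay below both and none above, with a median of -0.27 that turned to 0.03 with the 24 h array added. HSPA1B, the inducible HSP70, read 6.77, 7.92 and 8.81, and its near-identical copy HSPA1A, which the probes may not separate, 9.70, 10.46 and 11.34. HSPA8 read 11.69, 12.17 and 12.67, and these levels were higher at 12 h than at 6 h, then lower at 24 h, at 5.38 for HSPA1B.

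The 13 genes at least 2-fold lower were individually less uniform than the higher ones. The transcriptional repressor SPEN read 5.41, 6.92 and 6.72, and 2 of its 3 probe sets were past 2-fold. The crosslinking enzyme TGM2 read 4.46, 5.70 and 6.47 on 1 of 4 such probe sets. The paraspeckle protein PSPC1 read 8.17, 9.51 and 9.36 on 1 of 5. The signalling adaptor BCAR3 read 5.74, 7.14 and 6.87, with both of its probe sets past 2-fold. HHAT, NANOS1, UBXN8, ADORA1 and DLEU2 had differences of -1.08 to -1.50, each on 1 of their probe sets only. NOP14, PANK1 and PKNOX1, named after their values were seen, stayed under log2 6 on all 3 arrays. Just outside the 2-fold rule lay WT1 (6.60, 7.69 and 7.59), MT1M, SLC10A4, TRNP1 and E2F5. When all probe sets of a gene were averaged, 3 genes in place of 13 were at least 2-fold lower.

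The same contrast was made in the TNF arm, whose arrays did not enter the 2-fold rule, although they counted in choosing the brightest probe set of each gene. There EGR1 read 9.33 at 2 h, 5.20 at 6 h and 5.15 at 12 h and lay 4.15 ± 0.15 (SE) above the later mean. In the limma fit over 6 arrays, where the 6 h and 12 h arrays again supply the spread for a single 2 h array, its adjusted p was 0.0305. This fit called 4 genes in the TNF contrast (0.0219%), and the others, CXCL10, SAA2 and TNIP1, were lower at 2 h. With TNF, 102 genes (0.559%) were at least 2-fold higher at 2 h than on both later arrays and 128 (0.702%) were at least 2-fold lower. Of the 36 higher genes of the control arm 25 were among the 102, which is 69.4% of the first list and 24.5% of the second, and 35 lay above both later TNF arrays. The median TNF difference of the 36 was 1.60, against 1.48 with BSA. Of the 13 lower genes BCAR3 and TGM2 were among the 128, 15.4% and 1.56% of those lists, and 12 lay below both later TNF arrays. The shares of all genes above or below both later TNF arrays were not counted. The counts of 35 and 12 therefore have no background beside them and are not read as a result. Across all genes the differences of both arms correlated at r = 0.5362, a description over genes that are not independent.

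The levels of single genes can be set beside those of the control arm. With TNF, IER3 read 10.88, 8.57 and 6.70, ATF3 8.42, 5.94 and 5.64, and MAFF 7.62, 5.42 and 4.82, higher at each time than with BSA. CCN2 read 11.03, 7.27 and 7.80 and DUSP6 8.19, 4.97 and 5.68, with 2 h levels near those of the control arm. TIPARP read 9.20, 7.26 and 7.56. The FOS probe set that stood high in the control arm read 5.75, 3.26 and 3.34 with TNF, a difference of 2.45. The list medians with TNF were 0.31 for immediate early genes, 0.58 for the integrated stress response, -0.39 for ribosome biogenesis and -0.36 for metallothioneins, each of the same sign as with BSA. Some genes differed in the control arm, while their mean difference with TNF was small. ARID5B read 7.04, 5.40 and 6.02 with BSA and 7.22, 7.82 and 6.75 with TNF. Its 2 h TNF level lay between the later ones, so opposite differences offset each other in the mean. DUSP1 differed by 1.17 with BSA and -0.07 with TNF, and SPEN by -1.41 and -0.11. No gene passed the test of the difference between the arms (limma interaction, smallest adjusted p 0.168, 431 genes at an unadjusted p under 0.05).

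**Figure D5:**
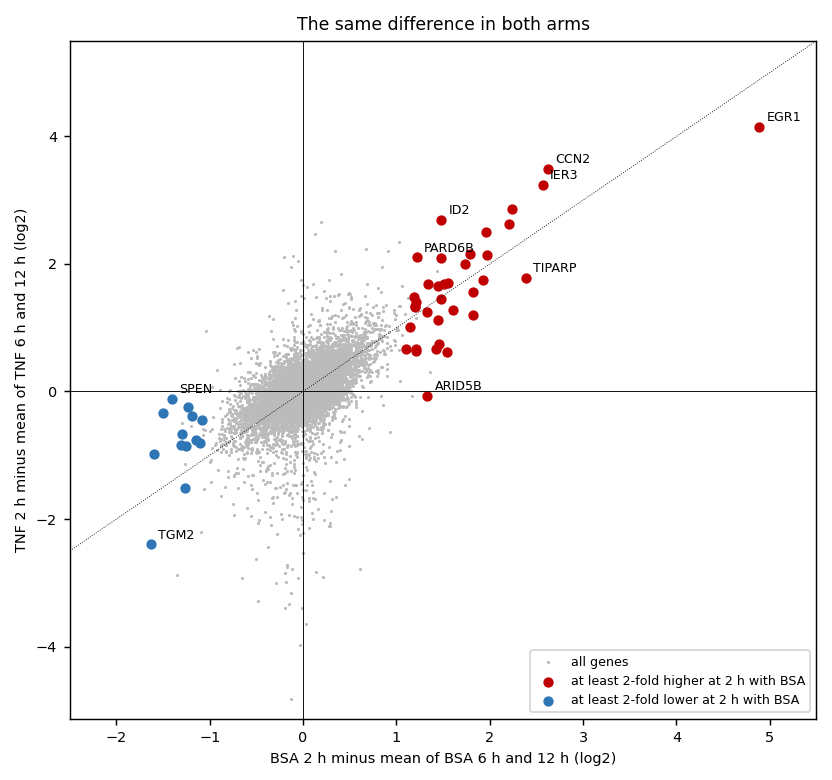
Difference of the 2 h array from the mean of the 6 h and 12 h arrays with BSA (horizontal axis, log2) and with TNF (vertical axis, log2) for each of 18239 genes; the dotted line marks equal differences and the arms share no array. Of the 36 genes higher with BSA (red) 35 lie above both later TNF arrays, with ARID5B as the exception, a share that was not counted over all genes. The 13 lower genes (blue) lie nearer 0 with TNF, apart from TGM2 and BCAR3.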

How the data were processed

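The deposited values were log2 RMA values, 1 per probe set and array, made by the authors with RMA per the submitters' processing notes; its software, version and any filter: not given in the sources used here. RMA equalises the arrays' distributions, so a shift of all genes cannot be seen. No further normalisation or filter was applied. Probe sets with several symbols (1327), none (2713) or control names (93) were left out. The differences between early and late arrays were fitted in limma 3.58.1 under R 4.3.3 (two-sided, Benjamini-Hochberg over 18239 genes, adjusted p under 0.05) on the 3 BSA arrays and on 6 arrays of both arms (2 residual degrees of freedom), and the code was tested on simulated data. Arrays give no read depth, so their number limits the precision.

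Named were the 15 largest differences in each direction among genes reaching log2 6, all immediate early members and up to 4 members of each other list. The comparison, the genes and the lists were chosen with earlier results of these data known. Alternatives covered the probe set per gene, a level filter, scaling, the late arrays, the fold and the limma prior.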

Additional observations from a re-analysis of the deposited data

Results flagged for a closer look

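EGR3 and IER5 moved in opposite directions in the arms, with the 2 h array on 1 side of both later arrays with BSA and on the other side with TNF. EGR3 differed by 0.13 with BSA and by -0.046 with TNF, at levels under 4 throughout. Its direction with BSA turned to -0.18 when the gene was represented by the brightest probe set of the control arrays. IER5, an early gene linked to the heat shock factor HSF1, differed by 0.57 with BSA (8.16, 7.77 and 7.41) and by -0.24 with TNF (7.67, 7.99 and 7.84). Neither passed the test of the difference between the arms after adjustment over all genes (limma interaction).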

How the results depend on the processing

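The 15 highest named genes stayed above the later mean under all 8 alternatives tried on single genes. The smallest values were 0.43 for ATF3 with the mean of all probe sets and 0.48 for GADD45A with the 24 h array added. All 8 alternatives reused the 2 h array on which these genes were ranked. Leaving out 1 late array or filtering by level could not change their sign, so those settings are no check. The counts depended on the settings. Leaving out 1 late array gave 63 to 176 genes at least 2-fold higher and 32 to 87 lower, in place of 36 and 13; the larger counts came without the 12 h array, that is against the 6 h array alone. Adding the 24 h array to the late arrays left 14 higher and 2 lower, and averaging probe sets left 3 lower. Thresholds of 1.5-fold and 3-fold gave 129 and 10 higher genes and 122 and 0 lower ones. Counting all probe sets gave 74 higher and 20 lower. limma on the 3 control arrays called 7 genes higher when only genes at log2 5 or more were tested (EGR1, CCN2, TIPARP, DUSP6, ATF3, IER3 and MAFF), 1 with the spread shared with the TNF arrays, and 21 higher and 2 lower with a trended, robust prior. The immediate early median was 0.56 with the level filter and 0.55 with the probe set of the highest control value. Both settings select on the compared arrays themselves, so neither is an independent check. The limma calls under the level filter, among 9716 genes tested, have the same limit. ATF3 and MAFF passed log2 5 through the 2 h array alone. In the TNF contrast limma called 2 higher and 7 lower with the mean of probe sets, and 1 lower with each array centred on its median. With the 24 h array added, 14 of 38 list medians changed sign, against 1 to 7 under the other alternatives, among them those of heat shock genes (0.03 in place of -0.27), metallothioneins (0.01 in place of -0.67), interferon-stimulated genes (0.04 in place of -0.13) and mitosis genes (0.24 in place of 0.00); the median of the integrated stress response went to 0.01. Among single genes named, FOSL2 turned to 0.09, 0.41 and 0.29 with the mean of probe sets, the brightest control probe set and the 24 h array added, EGR3 to -0.18 with the brightest control probe set, IER5L to 0.11 without the 6 h array and to 0.06 with the 24 h array added, and ARC and JUNB, at 0.02 and 0.00, under scaling or without the 12 h array. No paired analysis was possible because each group holds 1 array. With 1 array per time, array noise, culture differences and time cannot be told apart, and a gene low on the array shows no difference even if its transcript changed. BSA was present on every control array, so an effect of BSA itself was not tested.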

Other observations

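Several interferon-stimulated genes read higher at 12 h than at 2 h on the control arrays. IFI44 read 5.10, 5.69 and 6.68 at 2, 6 and 12 h and IFIT1 6.60, 7.09 and 7.58, then 4.05 and 5.02 at 24 h. Of the 14 genes measured 7 lay below both later arrays and 3 above, and none passed 2-fold. The list's median was -0.13, and 0.04 with the 24 h array added, and IRF1, the inducing factor, ran the other way at 7.24, 6.96 and 6.16.

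The extracellular matrix gene TNC read 4.37, 5.12 and 6.33, and the glucose-sensing arrestin TXNIP 6.52, 7.03 and 7.59. MKI67, a proliferation marker, read 8.02, 6.97 and 7.72, with the 6 h array lowest. Of 17 genes of DNA replication none passed 2-fold, and their median was 0.08.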
